A study of Danio rerio with 15 samples.

Results

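Posterior Hox genes and other genes linked to positional memory in fins were followed in the tissue at the cut of regrowing zebrafish fins. The members were taken by symbol from a list of 10 genes, namely hoxa13a, hoxa13b, hoxb13a, hoxc13a, hoxc13b, hoxd13a, hoxa11b, hand2, alx4a and pax9. The table of 14836 genes holds 9 of them and has no entry under alx4a. The question was whether the level of each gene was kept or altered as the fin regrew.

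Bulk RNA-seq libraries came from wild-type zebrafish, the fin being sampled 0, 4, 7, 14 or 21 days after the cut (dpa, days post amputation), with 3 libraries per time point and each library made from the pooled tissue of 10 animals. The tissue reached 1 bone segment to either side of the plane of amputation. The sample labels give 4 dpa for the second time point where the design text gives 3.5 dpa, and it is called 4 dpa here. No mutant, transgene or drug is named for any group, and the 0 dpa libraries are the common reference of all later times, so the 4 comparisons with 0 dpa share those 3 libraries.

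Hox genes encode homeodomain transcription factors that lie in clusters, and their order along a cluster matches the body level at which each acts in the embryo. The group 13 genes stand at the posterior end and pattern the tail and the outermost parts of paired appendages. In zebrafish, hoxa13 genes and hoxd13a are needed for normal rays of the paired fins. Fin mesenchyme cells are thought to keep a record of their position in such factors, hand2 being a posterior and alx4a an anterior factor of paired fins.

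Levels are given as scaled TPM, which is TPM divided by a median-of-ratios factor for each library. TPM is a level per transcript length, so levels of different genes can be compared. Tests were made by limma on log2(scaled TPM + 1), a scale that understates changes of low genes, with Benjamini-Hochberg adjustment over the 10235 genes tested and a threshold of 0.05. Every log2 change below is a difference on that scale, and the groups are pools of animals, so the p-values measure the spread between pools. In bulk tissue, fewer cells of a type and less RNA per cell cannot be told apart.

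The libraries also differed in depth and in composition. A single rRNA gene took from 2.26% of TPM in 0 dpa replicate 1 to 71.6% in 4 dpa replicate 3, and relative depth ran from 0.444 in 4 dpa replicate 3 to 2.52 in 0 dpa replicate 1. The steps of the low TPM values place the libraries in a pair of sets, with the number of sets fixed beforehand. For each pair of libraries the share of low-value ratios in 1 narrow peak was taken. Its median was 9.8% within a set and 2.2% between sets, with ranges of 3.8 to 19% and 1.4 to 5.2% that overlap. Set A holds 8 libraries, those of 0 and 4 dpa with 7 dpa replicates 1 and 3, and set B holds 7, namely 7 dpa replicate 2 and those of 14 and 21 dpa. The labels name no batch. For 14 and 21 dpa against 0 dpa, set and time cannot be told apart except through the 7 dpa libraries.

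The Hox genes of this tissue were led by a few posterior genes. Of the summed TPM of the 48 Hox genes in the table, hoxc12a made up a mean of 24.9% over the 15 libraries, hoxa13b 23.5% and hoxc13a 12.6%. At 0 dpa hoxa13b led, with a mean of 29.4% against 18.3% for hoxc12a, while at 14 dpa they were at 19.0% and 34.1%. The group 13 genes together made up 52.6% ± 5.35 (SD, n = 3) at 0 dpa, 56.1% ± 3.88 on day 4, 48.6% ± 3.68 on day 7, 43.1% ± 3.29 on day 14 and 44.4% ± 2.06 on day 21. The range at 14 dpa, from 39.9 to 46.5%, met those of 0 and 7 dpa only at their lowest libraries and lay below that of 4 dpa. The summed Hox level was 185 ± 20.6 at 0 dpa and 366 ± 22.8 at 14 dpa. No group 13 gene was called lower than at 0 dpa at any later time, and a share can fall without its genes falling. Among the members, hoxa13b had the highest mean level at every time point, followed by hoxc13a. At 0 dpa hoxa13a and hoxc13b overlapped with each other, and so did hoxa11b, hoxb13a and pax9 at the low end.

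Of the 9 members in the table, 8 passed the filter, which asked for a TPM of 1 or more in 3 libraries or more, and 4 of these 8 changed over the 5 time points, where 26.7% of all tested genes did. These were hoxc13a, hoxc13b, hoxa13a and hoxa11b. The member hoxd13a reached the filter only through libraries taken after amputation, so the number that passed is not evidence for the list. At 0 dpa the deposited TPM was 0.846, 1.16 and 1.34 for hoxa11b and 0.439, 0.857 and 1.16 for pax9. Both therefore also needed later libraries to pass.

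**Figure D1:**
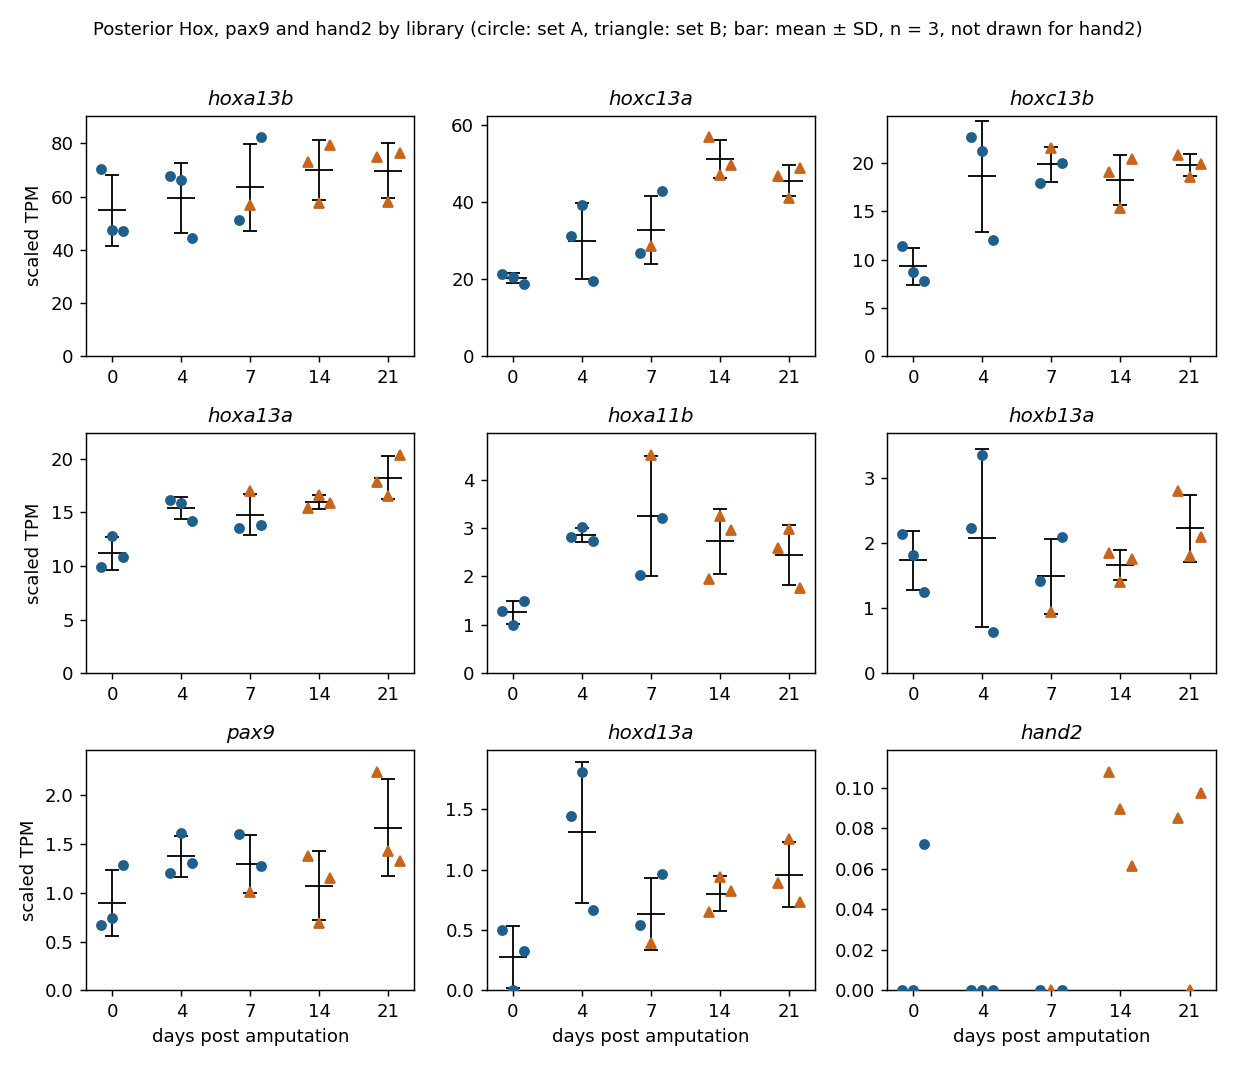
Scaled TPM of each member in the 15 libraries against days post amputation, with circles for set A, triangles for set B and bars for the mean ± SD of 3 libraries (not drawn for hand2). The 0 dpa libraries of hoxa13a, hoxc13b and hoxa11b lie below every later library, while those of hoxa13b and hoxb13a lie among the later ones.

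The most abundant member, hoxa13b, encodes a posterior Hox factor required with its duplicate for normal rays in paired fins. Its scaled TPM was 70.4, 47.4 and 46.9 at 0 dpa, 67.6, 66.4 and 44.4 on day 4, 51.3, 56.8 and 82.3 on day 7, 73.1, 57.5 and 79.3 on day 14 and 75.0, 57.8 and 76.4 on day 21. The ranges of all time points overlapped, with 0 dpa replicate 1 as high as most of the later libraries. The change over time did not pass the test (adjusted p = 0.673, limma F test). At 21 dpa the log2 difference from 0 dpa was 0.35, with a 95% interval from -0.18 to 0.89, or from 0.880-fold to 1.86-fold in scaled TPM + 1. These pools cannot tell a constant level from a rise within that interval.

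Its duplicate hoxa13a was several times less abundant. It stood at 9.87, 12.8 and 10.8 scaled TPM at 0 dpa, 16.1, 15.9 and 14.2 on day 4, 13.6, 17.0 and 13.8 on day 7, 15.4, 16.6 and 15.9 on day 14 and 17.8, 16.5 and 20.4 on day 21. Each later library was above all 3 of the 0 dpa libraries. The gene changed over time (adjusted p = 0.0462, limma), although that call held in 4 of 15 fits with 1 library removed. It was kept without 0 dpa replicate 2, 4 dpa replicate 3 or 7 dpa replicates 2 or 3, and the other 11 fits gave adjusted p from 0.0561 to 0.152. At 21 dpa it was 1.63-fold above 0 dpa in mean level, with a log2 difference of 0.66 (95% interval 0.32 to 1.00, adjusted p = 0.0130, limma), and without 0 dpa replicate 1 the adjusted p was 0.0524. With the 0 and 21 dpa libraries alone in the fit the adjusted p was 0.106. The log2 differences at 4, 7 and 14 dpa were 0.44, 0.38 and 0.49, and none passed the test (adjusted p = 0.0802, 0.193 and 0.0692).

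Both HoxC duplicates rose. The gene hoxc13a belongs to the group whose mouse counterpart is known for hair and nail formation. Its level was 21.3, 20.5 and 18.8 scaled TPM at 0 dpa, 31.0, 39.2 and 19.4 on day 4, 26.6, 28.7 and 42.95 on day 7, 56.7, 47.1 and 49.6 on day 14 and 46.8, 40.9 and 48.9 on day 21. All 14 and 21 dpa libraries stood above all 0 dpa libraries, and only the shallow 4 dpa replicate 3 of the later libraries fell within the 0 dpa range. The log2 rise from 0 dpa was 1.29 at 14 dpa (SE 0.24, 95% interval 0.78 to 1.81, adjusted p = 0.0043) and 1.13 at 21 dpa (SE 0.24, adjusted p = 0.0069), or 2.53-fold and 2.25-fold in mean level. Both calls held in all 15 fits with 1 library removed, which cannot separate set from time. Neither held on TPM as deposited (adjusted p = 0.0656 at 14 dpa and 0.386 at 21 dpa, limma). Nor did they hold with the library set as a term (0.359 and 0.326). At 4 dpa the log2 difference was 0.49 and did not pass the test (adjusted p = 0.199), though without 4 dpa replicate 3 it was 0.76 (adjusted p = 0.0376). From 14 to 21 dpa the difference was -0.16 with an interval from -0.68 to 0.35.

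The duplicate hoxc13b rose at every later time point. It measured 11.4, 8.74 and 7.76 scaled TPM at 0 dpa, 22.7, 21.2 and 12.1 on day 4, 18.0, 21.6 and 20.1 on day 7, 19.1, 15.4 and 20.4 on day 14 and 20.8, 18.6 and 19.9 on day 21. Again 4 dpa replicate 3 was the lowest of the later libraries, just above the highest at 0 dpa. The log2 difference from 0 dpa was 0.90 on day 4 (adjusted p = 0.0134), 1.03 on day 7 (0.0166), 0.91 on day 14 (0.0193) and 1.03 on day 21 (0.0075), each with an SE of 0.22. Mean levels after amputation were 1.97-fold to 2.14-fold those at 0 dpa. The 21 dpa call held in all 15 fits with 1 library removed. On TPM as deposited none of these calls held, and with the library set as a term those of 7, 14 and 21 dpa were lost. The 4 dpa call was lost without 0 dpa replicate 3, 4 dpa replicate 1 or 4 dpa replicate 2 (adjusted p from 0.0614 to 0.0746), the 7 dpa call without 0 dpa replicate 3 or 7 dpa replicate 2 (0.0666 and 0.0868), and the 14 dpa call without 0 dpa replicates 2 or 3 or 14 dpa replicates 1 or 3 (0.0501 to 0.0742). The change over time was lost without 0 dpa replicate 3 (0.0704).

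The time courses of the HoxC duplicates differed from each other, which the ratio within each library shows. The hoxc13a to hoxc13b ratio was 1.87, 2.35 and 2.43 at 0 dpa, 1.37, 1.84 and 1.61 on day 4, 1.48, 1.33 and 2.14 on day 7, 2.97, 3.06 and 2.43 on day 14 and 2.24, 2.20 and 2.45 on day 21. The 4 dpa libraries lay just below and the 14 dpa libraries just above those of 0 dpa, and these pairwise differences were not tested. Over the 5 time points the log2 ratio of scaled TPM + 1 varied (exact permutation F test over 1401400 partitions, p = 0.0066, adjusted over the 2 pairs 0.0131). The 4 dpa and 0 dpa libraries belong to set A alone. Within set B the single 7 dpa library, at 1.33, was below all 14 and 21 dpa libraries. The 7 dpa libraries of set A were at 1.48 and 2.14, the latter within the 0 dpa range. Whether the ratio differs by set was not tested.

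For the HoxA duplicates no such difference was detected. The mean hoxa13a to hoxa13b ratio was 0.214 ± 0.0670 (SD, n = 3) at 0 dpa, 0.266 ± 0.0471 on day 4, 0.244 ± 0.0685 on day 7, 0.233 ± 0.0485 on day 14 and 0.264 ± 0.0240 on day 21. The time points overlapped (exact permutation F test, p = 0.769). How reads that match both copies of a pair were split is not given in the sources used here.

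**Figure D2:**
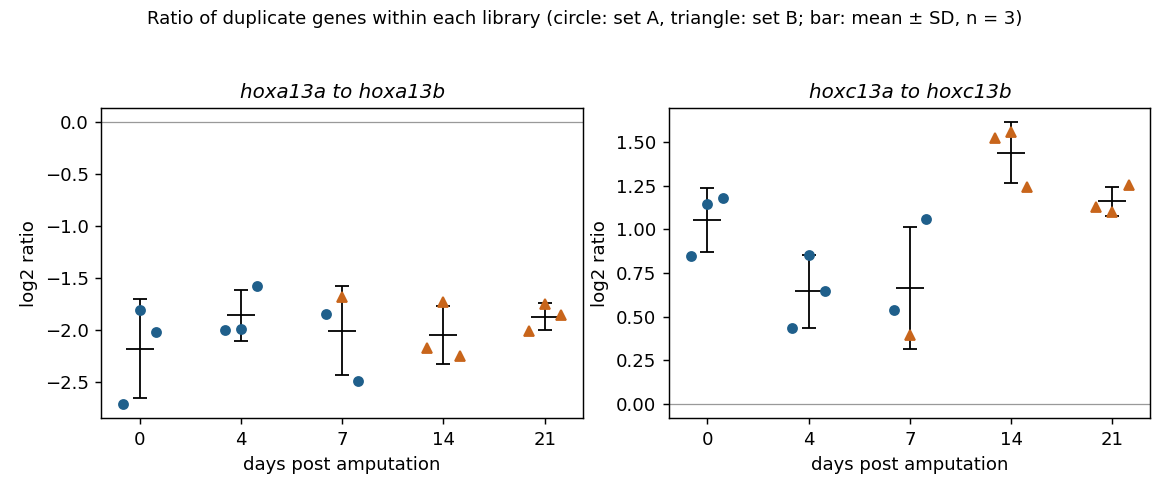
Log2 ratio of scaled TPM + 1 between duplicate genes in each library against days post amputation, circles for set A, triangles for set B, bars for the mean ± SD of 3 libraries. The hoxc13a to hoxc13b ratio has its highest mean at 14 dpa, where the untransformed ratios are 2.97, 3.06 and 2.43, whereas the HoxA ratios overlap at all times.

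Expression of hoxd13a, a group 13 gene of the HoxD cluster that acts in the outer part of the developing fin, was near the detection limit. Its scaled TPM was 0.50, 0 and 0.33 at 0 dpa, 1.45, 1.81 and 0.67 on day 4, 0.54, 0.39 and 0.96 on day 7, 0.64, 0.94 and 0.82 on day 14 and 0.89, 1.26 and 0.73 on day 21. Taking the smallest step of the low values as 1 read, the 0 dpa libraries held 8, 0 and 3 reads and the 4 dpa libraries 31, 36 and 2. The 3 libraries at 4 dpa lay above those at 0 dpa, replicate 3 on its 2 reads. The gene reached the filter only through libraries taken after amputation, among them 4 dpa replicates 1 and 2. The test at 4 dpa is therefore not independent evidence of a rise. The log2 rise at 4 dpa was 0.84 (SE 0.21, adjusted p = 0.0151, limma), lost without 0 dpa replicate 2 (0.0628), 4 dpa replicate 1 (0.0652) or 4 dpa replicate 2 (0.0787). At 21 dpa the log2 difference of 0.63 did not pass the test (adjusted p = 0.0640), nor did the change over time (0.0563). Without 4 dpa replicate 3 these were 0.0338 and 0.0152, and without 7 dpa replicate 3 the change over time was at 0.0382.

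The remaining group 13 member, hoxb13a, which in the embryo marks the tail end of the body, showed no detectable change. Its scaled TPM was 2.14, 1.82 and 1.25 at 0 dpa, from 0.636 to 3.36 on day 4, from 0.940 to 2.10 on day 7, from 1.41 to 1.85 on day 14 and 2.80, 1.80 and 2.09 on day 21. The ranges overlapped throughout, and the test over time gave an adjusted p of 0.807 (limma). The 95% interval at 21 dpa ran from 0.770-fold to 1.81-fold of 0 dpa in scaled TPM + 1, a scale that narrows the folds of so low a gene. It leaves room for a change of the size seen in hoxa13a. Reads were few, from 2 in 4 dpa replicate 3 to 70 in 4 dpa replicate 2.

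The group 11 gene hoxa11b, whose mouse counterpart patterns the middle segment of the limb, rose early. Its scaled TPM was 1.28, 1.00 and 1.48 at 0 dpa, 2.81, 3.02 and 2.74 on day 4, 2.04, 4.52 and 3.20 on day 7, 1.96, 3.24 and 2.96 on day 14 and 2.59, 2.97 and 1.77 on day 21. Every later library exceeded the 0 dpa libraries. The log2 rise was 0.78 on day 4 (adjusted p = 0.0231), 0.88 on day 7 (0.0314) and 0.71 on day 14 (0.0490), each with an SE of 0.21, and the difference of 0.60 on day 21 did not pass (0.0782). The 4 dpa call was lost without 0 dpa replicates 1 or 2 or 4 dpa replicates 1 or 2 (adjusted p from 0.0515 to 0.0748) and the 7 dpa call without any 0 dpa replicate or 7 dpa replicate 2 (0.0559 to 0.163). At 14 dpa the call held in 4 of 15 such fits, those without 7 dpa replicates 1 or 2, 14 dpa replicate 1 or 21 dpa replicate 3, and ranged from 0.0520 to 0.194 in the others. The change over time (adjusted p = 0.0348) held in 8 of 15 and was lost without any 0 dpa replicate, 4 dpa replicates 1 or 2 or 14 dpa replicates 2 or 3 (0.0507 to 0.134).

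Outside the Hox family, pax9 encodes a paired box factor of skeletal and pharyngeal development. It stood at 0.66, 0.74 and 1.29 scaled TPM at 0 dpa, from 1.21 to 1.61 on day 4, from 1.01 to 1.60 on day 7, from 0.687 to 1.38 on day 14 and at 2.24, 1.43 and 1.33 on day 21. The 21 dpa libraries were just above those at 0 dpa. Neither the change over time (adjusted p = 0.256) nor the log2 difference of 0.49 at 21 dpa (adjusted p = 0.0970, limma) passed the test. The basic helix-loop-helix gene hand2 was listed at 0 in 9 libraries and at no more than 0.108 scaled TPM in the others, which amounts to a single read in each of those 6. It was below the filter and was not tested, and its level could not be followed at this depth.

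The members' counts by time point are set here against those of all tested genes. On day 4, 3 of 8 tested members were called higher and 0 lower, where 7.87% of all tested genes were called higher and 7.26% lower. One of the 3 is hoxd13a, whose rise the filter favours, and without it 2 of 7 were called. Those 2 include hoxa11b, which also needed later libraries to pass the filter. On day 7 the counts were 2 and 0 against 2.53% and 2.45%, on day 14 they were 3 and 0 against 4.56% and 5.59%, and on day 21 they were 3 and 0 against 6.27% and 7.33%. Members whose libraries all lay above those of 0 dpa numbered 4 on day 4, 4 on day 7, 5 on day 14 and 6 on day 21, where this was so of 15.3%, 10.4%, 14.6% and 14.8% of all tested genes. The member hoxd13a, whose rise the filter favours, is among those counted on days 4, 14 and 21. The filter can also favour hoxa11b, called higher on days 4, 7 and 14 and counted here at all 4 times. It can favour pax9 too, which is counted on day 21. The members' median log2 difference from 0 dpa, hoxd13a included, was 0.46, 0.37, 0.50 and 0.61 at the 4 later times, and that of all tested genes was -0.03, -0.03, -0.03 and -0.04. Between 4 and 21 dpa no member was called by limma (1 at an unadjusted p under 0.05), where 22.0% of all tested genes were, and between 14 and 21 dpa none was (0 at an unadjusted p under 0.05), where 1.41% were.

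Member calls were fewer without scaling, and at 7, 14 and 21 dpa also with a library set term. Calls over all tested genes were fewer there too, as counted at the end. With the set term nearly all of those at 14 and 21 dpa were lost. In that fit the set difference rests on the 7 dpa libraries alone. Over time, the set term left a smaller share of the members' calls than of the calls over all tested genes. The same held for the Hox, cofactor and patterning lists below, and these differences were not tested. On TPM as deposited, without median-of-ratios scaling, hoxd13a and hoxa11b were called on day 4 and no member at 7, 14 or 21 dpa or over time. Without scaling the median of all tested genes also moved up on days 4 and 14, as given at the end. The differences called in the main fit stayed of similar size or grew there. That of hoxc13b was 1.26 on day 4 (adjusted p = 0.116), 1.14 on day 7 (0.513), 1.33 on day 14 (0.114) and 0.96 on day 21 (0.393), and that of hoxc13a was 1.73 on day 14 (0.0656) and 1.06 on day 21 (0.386). With the library set as a term none was called at 7, 14 or 21 dpa, and hoxa11b alone over time. That call over time is a share near that of all tested genes in the same fit. There hoxc13a had a log2 difference of 1.53 at 14 dpa (adjusted p = 0.359) and 1.36 at 21 dpa (0.326), and hoxc13b 0.74 (0.820) and 0.85 (0.612). For hoxa13a the 21 dpa difference fell to 0.37 (0.845), and for hoxa11b the 14 dpa difference was 0.08 (0.999). The 4 dpa comparison lies within set A, and fitted on that set alone the log2 rise of hoxc13b remained 0.90 (adjusted p = 0.0749), with hoxd13a at 0.0612 and hoxa11b as the sole call (0.0270). With the 0 and 4 dpa libraries alone in the fit, hoxc13b was likewise not called (0.0957).

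**Figure D3:**
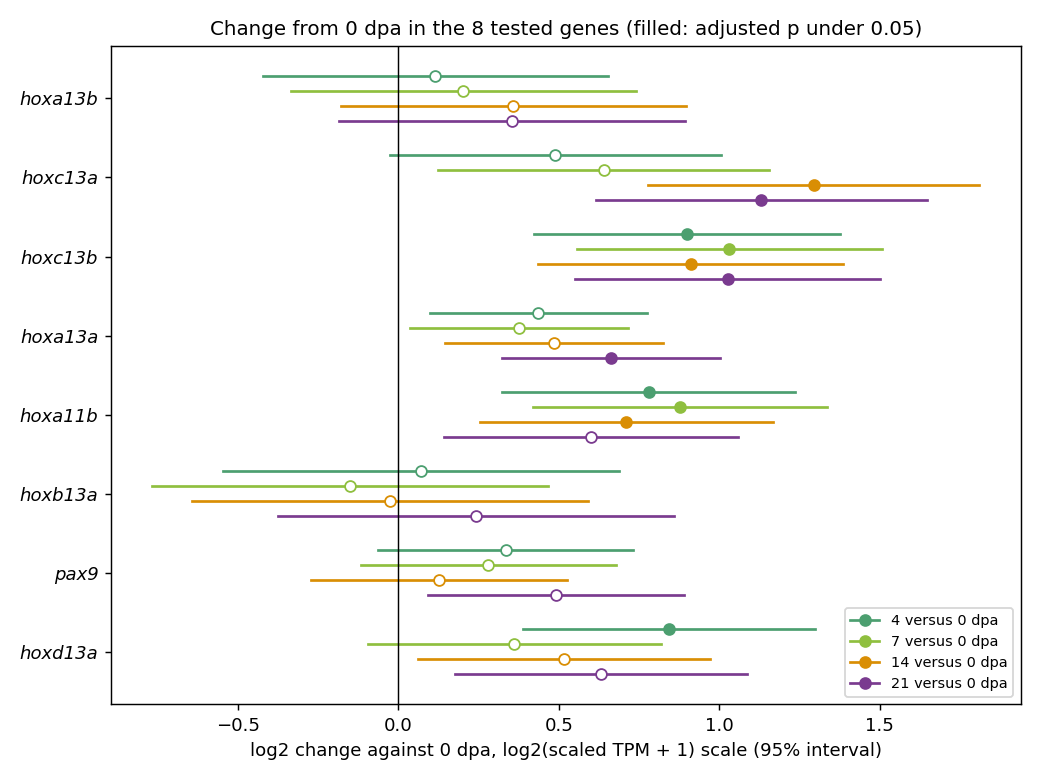
Log2 difference from 0 dpa of each tested member at 4, 7, 14 and 21 dpa, with 95% intervals from the limma fit to 15 libraries. Intervals of hoxc13b lie above 0 at all 4 times, and those of hoxa13b and hoxb13a include 0 at all of them.

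Markers of fin mesenchyme, the compartment in which fin positional genes are known to act, were in sum higher than at 0 dpa at all later times. The summed scaled TPM of prrx1a, prrx1b, pdgfra, tph1b, twist1a and twist1b ranged from 25.2 to 32.9 at 0 dpa, 44.8 to 72.5 on day 4, 46.5 to 53.9 on day 7, 45.4 to 53.3 on day 14 and 61.7 to 75.5 on day 21, none of the 6 being at 0. Of these, 4 were called higher on day 4, where 7.87% of all tested genes were, and 3 on day 21, where 6.27% were, while from 4 to 21 dpa 1 was called higher and 2 lower. On TPM as deposited 2 were called higher on day 4 and 1 on day 21, and with the library set as a term 4 and 0. The level of prrx1a, a mesenchymal homeodomain gene, averaged 17.2 at 0 dpa, 34.3 on day 4 and 20.1 on day 21. The largest part of the sum on day 21 was twist1a, at 42.4, 29.1 and 39.4, against 8.67, 6.94 and 3.97 at 0 dpa. On day 7 twist1a was at 6.55, 5.04 and 6.24. Other lists also held genes called higher. Of 7 osteoblast markers, 2 were called higher on day 4, 3 on day 7, 2 on day 14 and 2 on day 21, with none lower. Of all tested genes 7.87%, 2.53%, 4.56% and 6.27% were called higher at these times, which also applies to the endothelial and pigment lists. The markers sp7, mitfa and tph1b stayed below a TPM of 1 in every 0 dpa library, so the filter favours rises in them. The osteoblast sum is mostly bglap, a late bone matrix gene that ran from 977 to 11075 over the libraries. It was lower on day 4, at 1437, 1831 and 977 against 7391, 2123 and 2017 at 0 dpa, and was not called there. With bglap the mean sum was 4010 at 0 dpa, 1876 on day 4, 6387 on day 7, 6357 on day 14 and 5806 on day 21. Without bglap the other 6 summed to a mean of 167 at 0 dpa, 461 on day 4, 468 on day 7, 286 on day 14 and 246 on day 21. Endothelial markers summed to means between 13.4 at 0 dpa and 29.2 on day 4, and of 4 tested 3 were called higher on day 4, 1 on day 7, 2 on day 14 and 1 on day 21. Pigment cell markers summed to between 24.2 at 0 dpa and 58.8 on day 14, and of 4 tested 3 were called higher on day 14 and 1 on day 21. With the library set as a term none of these 3 lists had a call at 14 or 21 dpa, and on TPM as deposited none had one at 21 dpa. The part of these markers' shifts in the members' levels was not tested. Epidermal markers summed to means between 4757 on day 4 and 7234 at 0 dpa, with 1 of 6 called lower on day 4 and 1 on day 14. Leukocyte markers (4 of 6 in the table) summed to means between 67.3 on day 21 and 107 at 0 dpa and erythrocyte markers to between 39.2 at 0 dpa and 161 on day 4, while skeletal muscle markers never exceeded 2.82.

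The other Hox genes moved mainly late. Of 42 listed, 41 were in the table and 23 tested, and 13 of the 23 changed over time, where 26.7% of all tested genes did. With the deposited TPM 5 did, and with the library set as a term 2, settings in which calls over all tested genes fell as well. With the set term the share of the list was no larger than that of all tested genes, as counted at the end. At 4 dpa hoxa10b was called higher (log2 0.80, adjusted p = 0.0060) and hoxc3a lower (log2 -0.81, adjusted p = 0.0194, limma). With the deposited TPM hoxc3a was at -0.52 and not called (adjusted p = 0.372). At 14 dpa 6 were called higher and at 21 dpa 11, where 4.56% and 6.27% of all tested genes were. None was called lower at either time, and their median log2 difference at 21 dpa was 0.69. The filter can favour rises. Of the tested genes, hoxd9a, hoxd10a, hoxd11a, hoxd12a, hoxb10a and hoxb6a stayed below a TPM of 1 in every 0 dpa library. The gene hoxb1b, at 0.714 to 1.09 scaled TPM at 0 dpa and no more than 0.550 in later libraries, was below the filter. From 4 to 21 dpa 13 of the 23 were called higher, where 10.2% of all tested genes were, and 10 of the 13 belong to the HoxC cluster. That count of 13 was 3 on TPM as deposited and 2 with the library set as a term. With TPM as deposited the count at 21 dpa was 1 and with the library set as a term 0, with medians of 0.62 and 0.71.

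Among the 30 tested Hox genes, hoxc11a and hoxc12a, neighbours of hoxc13a in the HoxC cluster, had the largest log2 differences at 21 dpa. The scaled TPM of hoxc12a was 29.5, 31.5 and 39.8 at 0 dpa, 44.6, 54.1 and 34.4 on day 4, 64.1, 79.5 and 69.7 on day 7, 110, 127 and 138 on day 14 and 89.6, 72.0 and 118 on day 21. Libraries from 7 dpa on were all above those of 0 and 4 dpa. Its log2 rise was 1.87 at 14 dpa (adjusted p = 5.0e-04) and 1.43 at 21 dpa (adjusted p = 0.0011, limma). In hoxc11a the mean was 2.86 ± 0.307 (SD, n = 3) at 0 dpa, 2.98 ± 0.962 on day 4, 4.57 ± 0.420 on day 7, 7.50 ± 0.993 on day 14 and 10.4 ± 0.482 on day 21, a log2 rise of 1.57 by 21 dpa (adjusted p = 6.2e-05). With the library set as a term the 21 dpa rises were 1.18 (adjusted p = 0.383) for hoxc12a and 1.41 (0.0954) for hoxc11a. They were, on TPM as deposited, 1.36 (0.224) and 1.48 (0.0113).

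Genes of the HoxA cluster and of lower groups also rose. By 21 dpa hoxa3a went from a mean of 2.08 to 6.06 scaled TPM (log2 1.17, adjusted p = 5.3e-04), hoxa4a from 2.02 to 5.45 (log2 1.11, 0.0068), hoxc9a from 4.52 to 8.53 (log2 0.78, 0.0025) and hoxc6a from 2.22 to 6.10 (log2 1.16, 0.0409). From 4 to 21 dpa hoxc10a rose from 6.99 to 15.2 (log2 1.02, adjusted p = 0.0016), while its difference at 21 dpa from 0 dpa did not pass (0.0941). None of these 5 calls held on TPM as deposited or with the library set as a term. By cluster, 10 of 12 tested HoxC genes changed over time, 6 of 10 HoxA genes, 1 of 5 HoxD genes and 0 of 3 HoxB genes (1 at an unadjusted p under 0.05), the members included, where 26.7% of all tested genes did. These counts were 3, 2, 0 and 0 on TPM as deposited, and with the library set as a term 2, 1, 0 and 0. Calls over all tested genes fell in both settings too. With the set term the HoxA share was near that of all tested genes and the HoxC share somewhat above it. All 5 tested HoxD genes stayed below a TPM of 1 in every 0 dpa library. In paralogue groups 11 to 13 the count was 7 of 13 and in groups 1 to 10 it was 10 of 17. These were 2 and 3 on TPM as deposited, and 1 and 2 with the library set as a term.

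**Figure D4:**
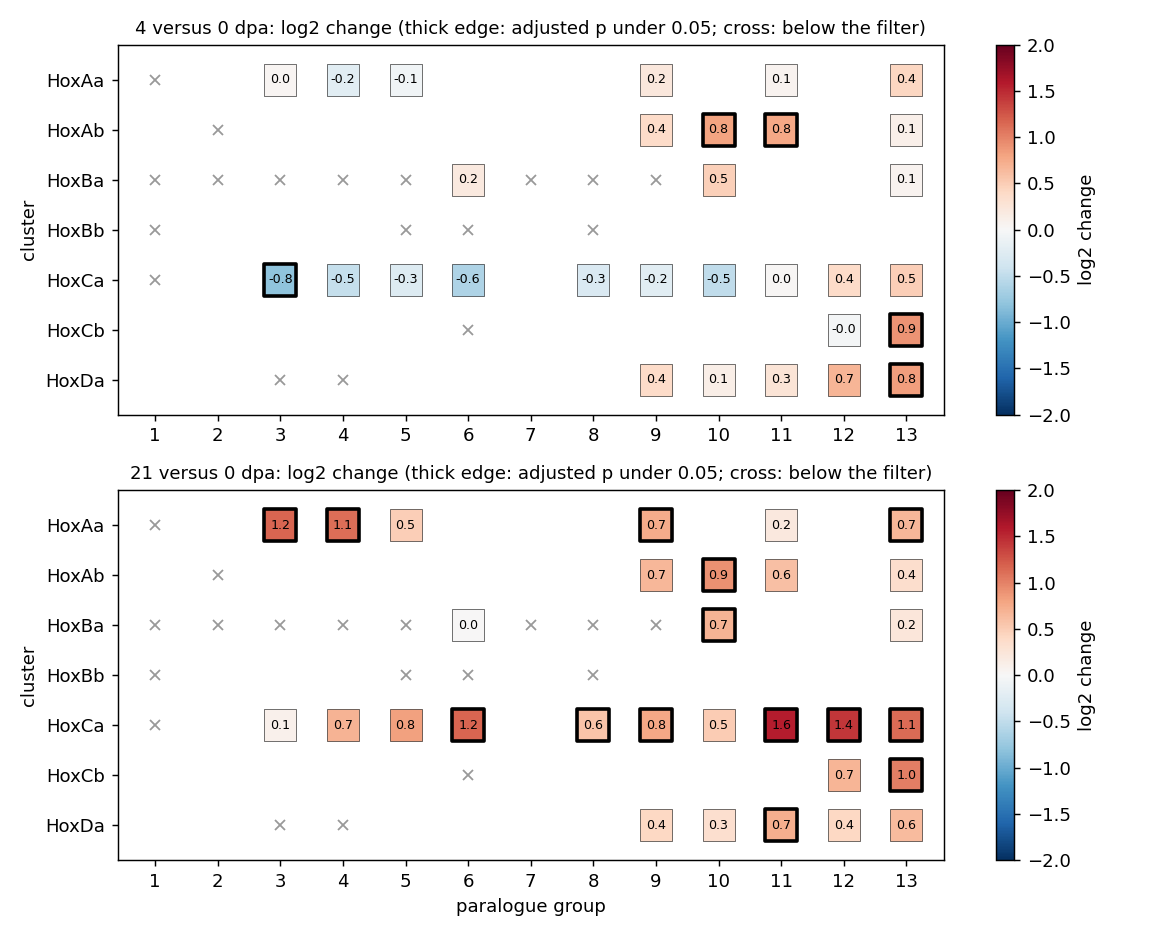
Log2 difference from 0 dpa of the 30 tested Hox genes at 4 dpa (top) and 21 dpa (bottom), laid out by paralogue group (x axis) and cluster (y axis), with thick edges for an adjusted p under 0.05 and crosses for genes below the filter. At 4 dpa hoxc3a is the sole gene called lower, at -0.81, and at 21 dpa all called genes are higher, with hoxc11a at 1.57.

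Hox proteins bind DNA with cofactors of the Pbx and Meis families. Of 11 listed cofactor genes 10 were in the table, 6 were tested and 2 changed over time, a share near the 26.7% of all tested genes, and none did on TPM as deposited or with the library set as a term. Between 0 and 21 dpa meis1b went from a mean of 5.93 to 11.6 scaled TPM (log2 0.88, adjusted p = 0.0174) and pbx1a from 4.38 to 7.82 (log2 0.73, adjusted p = 0.0169). Neither passed at 4 dpa, and neither passed at 21 dpa on TPM as deposited (adjusted p = 0.331 and 0.519) or with the library set as a term (0.783 and 0.774).

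Of 23 other patterning transcription factors of limbs and fins, 19 were in the table, 10 were tested and 6 changed over time, where 26.7% of all tested genes did. This fell to 3 on TPM as deposited and to 1 with the library set as a term, where calls over all tested genes fell too. With the set term the share of the list was near that of all tested genes. The zinc finger gene sall1a was at 0.938, 1.98 and 2.02 scaled TPM at 0 dpa and at 7.36, 6.04 and 6.38 at 4 dpa, well apart, for a log2 rise of 1.55 (adjusted p = 1.9e-04), which was also called on TPM as deposited and with the library set as a term. In the opposite direction irx3a averaged 11.8 at 0 dpa and 7.16 at 4 dpa (log2 -0.64, adjusted p = 0.0274) and 13.7 at 21 dpa. The homeobox genes emx2 (from a mean of 2.29 to 7.68), irx5a (from 2.46 to 6.94) and lhx9 (from 1.26 to 3.01) and the T-box gene tbx2a (from 1.12 to 2.08) were called higher at 21 dpa than at 0 dpa, with log2 rises of 1.37, 1.19, 0.82 and 0.54. On TPM as deposited irx3a was not called at 4 dpa and none of these 4 at 21 dpa, and with the library set as a term none of the 10 was called at 21 dpa.

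The tested genes most like each changed member were found by the root-mean-square difference in log2(scaled TPM + 1) over the 15 libraries, each gene centred on its own mean. For hoxa13a these were surf4, ctbp2a and dusp4, at 0.127 to 0.132, where the spread of hoxa13a itself about its mean was 0.245. The closest to hoxc13a were slc2a15b, hmgb3a and mtx3 (0.244 to 0.264, own spread 0.521), and to hoxc13b they were lmo4a, sema3d and ugt1b1 (0.180 to 0.205, own spread 0.447). Closest to hoxa11b were si:dkey-172m14.1, zgc:113210 and aldh1a2, the last an enzyme of retinoic acid synthesis (0.209 to 0.224, own spread 0.380). These values describe libraries that share depth and set, and no test was made of them.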

How the data were processed

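Total RNA was measured in 15 libraries of zebrafish fin tissue, 3 at each of 5 time points, grouped by the time given in the sample labels. The authors deposited 1 table of TPM values, which are length-normalized and sum to 1000000 per library, so read totals are unknown and only relative depth could be read from the low values. Per the submitters' processing notes the tools were Trim Galore 0.6.7, cutadapt 3.5 and Salmon 1.4.0, with the build danRer11, and their roles are not given in the sources used here. Per the labels' protocols, cDNA was amplified and tagged with Tn5, and no molecular identifiers are mentioned. No sequences or coordinates are given.

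TPM values were divided by median-of-ratios factors (0.575 to 1.48) from the 10774 genes above 0 in every library, and log2(scaled TPM + 1) was fitted with limma 3.58.1 in R 4.3.3 (intensity trend, 1 mean per time point, all 15 libraries, two-sided contrasts and an F test), for genes that reached a TPM of 1 in 3 or more libraries. Summaries used Python 3.11.15. The fit was tested on simulated data of 10039 genes, with a log2 change of 2 planted at 4 dpa in 200 of them. For 4 against 0 dpa it recovered 178, with 13 false calls. Library sets and changes as small as those of the members were not simulated. Changes were planted only in genes above a mean level that hoxd13a, pax9, hoxb13a and hoxa11b do not reach. Ratios of duplicates were tested by exact permutation, two-sided by construction of F.

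Genes named are every listed member, up to 8 genes per comparison list past the F test, and the 3 genes most like each changed member. The genes hoxc3a, prrx1a, bglap, twist1a and hoxb1b, and those given as below a TPM of 1 at 0 dpa, were named after their values were seen. The members and lists were chosen with earlier results of these data known. Alternatives were TPM as deposited, a pseudocount of 0.1, no filter, a replicate block, a library set term, only the compared time points and leaving out each library, and, chosen after seeing the data, 1 library set only.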

Additional observations from a re-analysis of the deposited data

How the results depend on the processing

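Of 8 tested members, 4 were called over time, 3 on day 4, 2 on day 7, 3 on day 14 and 3 on day 21. On TPM as deposited these were 0 over time, 2 on day 4 and 0 at 7, 14 and 21 dpa, and with the library set as a term 1 over time, 3 on day 4 and 0 at 7, 14 and 21 dpa. With only the compared time points in the fit the count was 1 on day 4 and 0 on day 7, and hoxd13a was below the filter on day 4. In that setting hoxa11b lost its call on day 14 (adjusted p = 0.0595, limma) and hoxa13a its call on day 21 (0.106). With set A alone, an alternative chosen after seeing the data, the count was 1 on day 4 and 0 on day 7. Leaving out 1 library gave 1 to 5 over time, 0 to 4 on day 4 (0 without 4 dpa replicate 1 or replicate 2), 0 to 2 on day 7 (0 without 0 dpa replicate 3 or 7 dpa replicate 2), 1 to 3 on day 14, 2 to 4 on day 21 and 0 to 1 from 4 to 21 dpa (hoxc13a, without 4 dpa replicate 2 or 7 dpa replicate 3). No member changed sign under any alternative run in a comparison in which it was called. The 21 dpa difference of hoxa11b, which was not called, was -0.03 with the library set as a term.

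Of all 10235 genes, 2734 were called over time, 1549 on day 4, 510 on day 7, 1039 on day 14, 1392 on day 21, 2249 from 4 to 21 dpa and 144 from 14 to 21 dpa. On TPM as deposited these were 869, 531, 31, 199, 197, 993 and 80. The number called higher was 806, 259, 467, 642, 1046 and 70 in the 6 contrasts in that order, and 487, 22, 180, 75, 136 and 20 on TPM as deposited, where the median of all genes was 0.25, 0.06, 0.31, -0.08, -0.34 and -0.40 on the log2 scale. With the library set as a term the counts were 1119 over time, 159 on day 7, 4 on day 14, 31 on day 21 and 260 from 4 to 21 dpa. With only the compared time points they were 801 on day 4, 53 on day 7, 599 on day 14 and 671 on day 21, from fewer libraries, and with set A alone 902 on day 4 and 25 on day 7. Leaving out 1 library gave 1938 to 3201 over time, 962 to 1683 on day 4, 159 to 966 on day 7, 402 to 1163 on day 14, 883 to 1573 on day 21, 1459 to 2442 from 4 to 21 dpa and 66 to 178 from 14 to 21 dpa. Where no cause is named, the cause was not tested.

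The replicate numbers are shared by the time points, but deviations of same-numbered libraries correlated from -0.63 to 0.65, with 12 of 30 pairs over 0.1 against 26 of 60 other pairs. Pairing by number was not evident in this and was not used in the main fit. Whether same-numbered libraries share an origin was not tested. With a replicate block 3 members were called over time, 3 on day 4, 2 on day 7, 2 on day 14 and 3 on day 21, the losses being hoxa13a over time (adjusted p = 0.0735) and hoxa11b on day 14 (0.0530). The ratio of hoxc13a to hoxc13b kept its call on TPM as deposited and with a pseudocount of 0.1 (adjusted p = 0.0142 and 0.0141) and when 1 library was left out (up to 0.0416). No library set term, replicate block or other alternative was run on it. Without the filter hoxa11b missed the threshold over time (0.0547) and on day 14 (0.0765). With few reads behind hoxd13a, hoxb13a and hand2, changes in them below the spread between pools were not detectable at this depth.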
